A study of Homo sapiens with 6 samples.

Results

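LMAN1 and 9 other genes of receptors that sort cargo early in the secretory pathway (LMAN2, MCFD2, SURF4, ERGIC1, ERGIC2, ERGIC3, KDELR1, KDELR2 and KDELR3) were followed in LX-2, an established human cell line of hepatic stellate origin. The genes were taken by symbol from the deposited table, and all 10 were found among its 60669 rows. LMAN1 was selected on its log2 fold change in the comparison below, so its values are given as a description without a test. The other 9 were named for their function, though with earlier results of these data known. Wild-type cells were transfected with small interfering RNA (siRNA), either a control (siCTL) or one against ADAMTS12, a secreted metalloprotease (siADAMTS12), and poly(A) RNA was sequenced 48 h later from 3 libraries per group. The labels list a single ADAMTS12 siRNA. They do not say that the libraries of a group were grown apart, and p-values then reflect only library-to-library spread, which may be technical.

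Proteins made in the endoplasmic reticulum (ER) leave it in COPII-coated vesicles and pass through the ER-Golgi intermediate compartment (ERGIC). Transmembrane cargo receptors gather particular soluble proteins into these vesicles, and COPI-coated vesicles carry the empty receptors and escaped ER residents back. Stellate cells secrete large amounts of collagen and other matrix proteins along this route.

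The deposited values are normalized counts. They summed to between 33576945 and 34072515 in the siCTL libraries and between 30678468 and 31415206 in the siADAMTS12 libraries. Across genes, libraries of a group correlated at 0.991 to 0.994 on the log2 scale. ADAMTS12 itself, the check of the knockdown, went from 13122 ± 782 to 3740 ± 320 (SD, n = 3), which left 28.5%. All 10 stellate markers were detected, with a summed level of 432884 to 471917 in siCTL and 341936 to 365559 in siADAMTS12, and no hepatocyte marker reached a mean of 10. Markers of endothelial, immune and bile duct cells summed to at most 39, 124 and 298 in any library. Of the 15637 genes tested (mean of 10 or more), limma called 27.0% at an adjusted p under 0.05, 15.5% lower and 11.5% higher. After quantile normalization the balance turned, with 2078 genes called lower and 2175 higher, against 2424 and 1798. The median log2 fold change was 0.005 over all genes tested and -0.11 over the 1433 genes with a mean of at least 5000, and the latter was 0.04 after quantile normalization. In that range 33.7% of genes fell with the authors' scaling, and 7 of the 10 receptor genes reached it. The part of abundance, or of the lower library and stellate marker sums, in the values below was not tested.

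LMAN1 (ENSG00000074695, chromosome 18, 59327823 to 59359962, minus strand, GRCh38) encodes ERGIC-53, a mannose-binding lectin that cycles between ER and ERGIC. The siCTL libraries held 10697, 10387 and 11059 normalized counts of LMAN1, against 3918, 3691 and 3846 with siADAMTS12. The groups lay far apart, with a coefficient of variation of 3.14% in siCTL and 3.04% in siADAMTS12. The mean went from 10714 ± 336 to 3818 ± 116 (SD, n = 3), so that 35.6% was left, with a log2 fold change of -1.49 ± 0.06 (SE). By count, without correction for length, LMAN1 stood above 96.9% of the genes tested in control cells. Of the 478 genes with a control mean at least as high, only 7 had a lower log2 fold change than LMAN1, and over all 15637 genes it ranked 70. In bulk RNA, fewer cells with a transcript and less of it per cell cannot be told apart.

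MCFD2 (ENSG00000180398, chromosome 2, 46901870 to 46941855, minus strand) is the small calcium-binding partner of LMAN1. The pair carries coagulation factors V and VIII out of the ER, and loss of either partner causes a combined deficiency of both factors. MCFD2 counts were 10879, 9931 and 11692 in siCTL and 10794, 10212 and 11096 in siADAMTS12. These ranges overlapped: the log2 fold change was -0.02 with a 95% interval from -0.17 to 0.14 (limma adjusted p = 0.903). The log2 ratio of LMAN1 to MCFD2 counts was -0.02, 0.06 and -0.08 in the siCTL libraries and -1.46, -1.47 and -1.53 in the siADAMTS12 libraries, a change of -1.47, with groups far apart.

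The siRNA guide's seed, bases 2 to 8, can pair with 3' untranslated regions (UTRs) as a microRNA's seed does, and the sites are shown because LMAN1 holds such a match. The sense strand is from the labels, without its overhang, and the guide is its reverse complement. Both run 5′ to 3′, with the seed in capitals in the guide, and the target letters opposite the seed are GAGGGAA.
siRNA sense strand: gccaaaguuuggagggaaa
siRNA guide strand: uUUCCCUCcaaacuuuggc

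A search of a single GENCODE 29 3' UTR per gene found the 7-base match in LMAN1 and in no other member, and also in none when any annotated 3' UTR of the other 9 was allowed. It lies at base 53 of the 3270-base LMAN1 3' UTR (chr18:59331034-59331040, minus strand, GRCh38). LMAN1 holds a further match, to guide positions 2 to 7 followed by A, at base 2865 (chr18:59328223-59328228). ERGIC1 holds a pair of 6-base matches (chr5:172952101-172952106 and chr5:172952613-172952618, plus strand). The latter is followed by A, as is the LMAN1 match at base 2865. MCFD2 holds a single 6-base match without a following A (chr2:46903772-46903777, minus strand). Matches to positions 2 to 7 followed by A are counted as 6-base matches below. The matched letters, with a following A where present, are in capitals.
LMAN1 site at base 53: gatgtcgttttGAGGGAAttta
LMAN1 site at base 2865: ttttgataacttAGGGAAAaca
ERGIC1 site at base 1285: ttaattccacccAGGGAAtttt
ERGIC1 site at base 1797: atcaaaatctgaAGGGAAAaaa
MCFD2 site at base 1686: cccttatttataAGGGAAtgcc

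LMAN2 (ENSG00000169223, chromosome 5, 177331562 to 177351852, minus strand) encodes VIP36, the related lectin that moves between ER and Golgi. Its counts were 5028, 5500 and 5239 in siCTL against 4902, 5163 and 4757 in siADAMTS12. The groups overlapped, with a log2 fold change of -0.09 and a 95% interval from -0.22 to 0.04 (limma adjusted p = 0.312). SURF4 (ENSG00000148248, chromosome 9, 133361449 to 133376166, minus strand) is a multispanning receptor that exports soluble secretory proteins from the ER. It had 3082, 3015 and 2613 normalized counts in siCTL and 2270, 1978 and 2119 in siADAMTS12, with every treated library below every control. SURF4 fell by 0.45 ± 0.08 (SE) on the log2 scale, which left 73.1% (limma adjusted p = 0.00142).

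**Figure D1:**
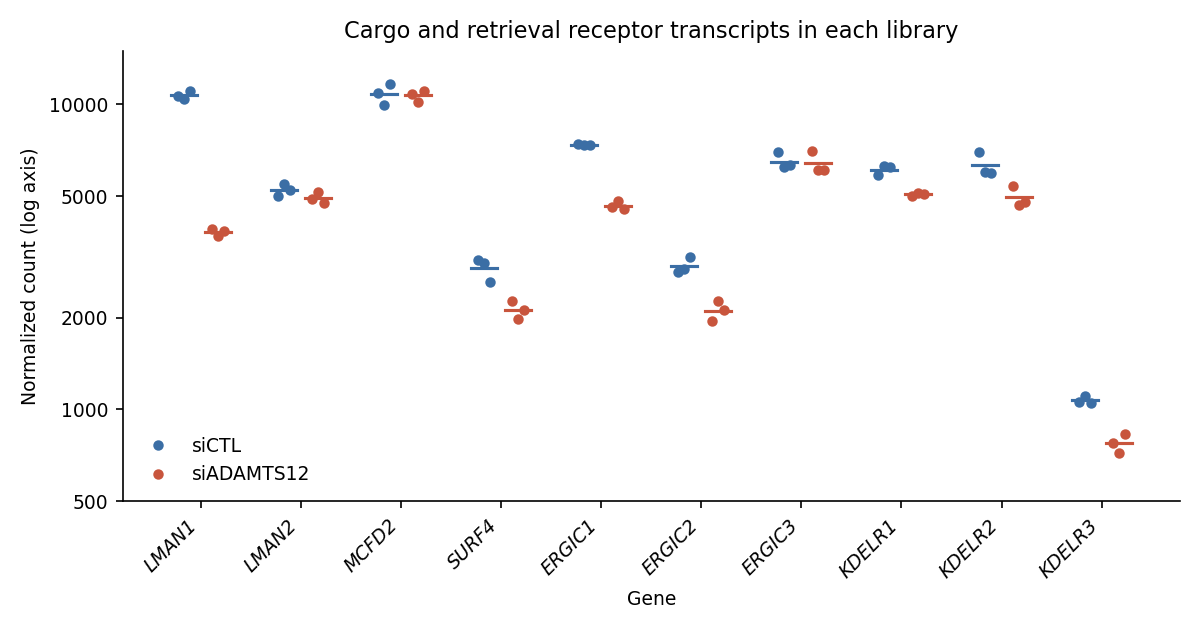
Normalized counts (log axis) of the 10 receptor genes in each of 3 siCTL and 3 siADAMTS12 libraries; points are libraries and bars are means. The LMAN1 means lie at 10714 in siCTL and 3818 in siADAMTS12, while the points of MCFD2, LMAN2 and ERGIC3 overlap between groups.

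ERGIC2 and ERGIC3 are the human relatives of a yeast receptor pair, Erv41 and Erv46, that retrieves ER proteins and sorts cargo, and ERGIC1 encodes ERGIC-32, which associates with them. ERGIC1 (ENSG00000113719, chromosome 5, 172834275 to 172952685, plus strand) had 7425, 7344 and 7390 counts in siCTL and 4620, 4818 and 4536 in siADAMTS12. Its control libraries differed by a coefficient of variation of 0.55%, and all treated libraries were lower. ERGIC1 fell by 0.67 ± 0.06 (SE) on the log2 scale to 63.1% of control (limma adjusted p = 6.35e-06). ERGIC2 (ENSG00000087502, chromosome 12, 29337352 to 29381189, minus strand) had 2827, 2897 and 3151 counts in siCTL and 1949, 2259 and 2114 in siADAMTS12. The ERGIC2 groups did not overlap, and the gene fell by 0.49 ± 0.07 (SE) on the log2 scale (limma adjusted p = 0.000427). ERGIC3 (ENSG00000125991, chromosome 20, 35542021 to 35557634, plus strand) stood at 6957, 6225 and 6312 in siCTL and at 7048, 6089 and 6089 in siADAMTS12. Replicate 1 was the highest in both groups, the ranges overlapped, and the log2 fold change was -0.02 with a 95% interval from -0.18 to 0.14 (limma adjusted p = 0.867).

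The 3 KDEL receptors bind escaped ER chaperones in the Golgi by a short signal at the chaperone's end and return them in COPI vesicles. KDELR1 (ENSG00000105438, chromosome 19, 48382570 to 48391553, minus strand) had 5848, 6259 and 6249 counts in siCTL and 5021, 5133 and 5104 in siADAMTS12. It fell by 0.27 ± 0.06 (SE) on the log2 scale (limma adjusted p = 0.00488), with no overlap between groups. KDELR2 (ENSG00000136240, chromosome 7, 6445953 to 6484242, minus strand) had 7000, 6009 and 5964 counts in siCTL and 5405, 4684 and 4799 in siADAMTS12. Replicate 1 was again the highest in both groups, and KDELR2 fell by 0.35 ± 0.08 (SE) on the log2 scale (limma adjusted p = 0.00714). KDELR3 (ENSG00000100196, chromosome 22, 38468062 to 38483447, plus strand), the least abundant of the 10 by count, had 1060, 1104 and 1050 in siCTL and 775, 720 and 829 in siADAMTS12. KDELR3 fell by 0.47 ± 0.07 (SE) on the log2 scale, to 72.3% of control (limma adjusted p = 0.000769). After quantile normalization KDELR1 and KDELR2 no longer passed (limma adjusted p = 0.0607 and 0.0646, with ranges over 13 alternatives from 0.00195 to 0.0607 and from 0.000371 to 0.0646), and KDELR2 also missed the threshold without the intensity trend (0.0515).

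In all, 6 of the 9 genes other than LMAN1 fell and 0 rose, with 0 higher at an unadjusted p under 0.05 either; limma called 15.5% of all genes tested lower. Among the 6751 genes with a mean of at least 923, that of KDELR3, 23.4% fell. The median log2 fold change of the 9 genes was -0.35. With exact 2-sided permutation of the libraries, each of the 6 genes that fell had p = 0.1, the smallest that 3 against 3 allows, and p was 0.2 for LMAN2, 0.9 for MCFD2 and 0.6 for ERGIC3. Groups that did not overlap, with siADAMTS12 lower, were found for 21.7% of all genes tested, and in either direction for 40.9%. Exons of MCFD2, ERGIC2 and KDELR3 share 154, 173 and 8 bases with TTC7A, FAR2 and DDX17 on the opposite strand, and those of KDELR2 share 376 bases with DAGLB on the same strand in GENCODE 29. The strand setting of the counting is not given in the sources used here, so reads in these stretches are uncertain.

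**Figure D2:**
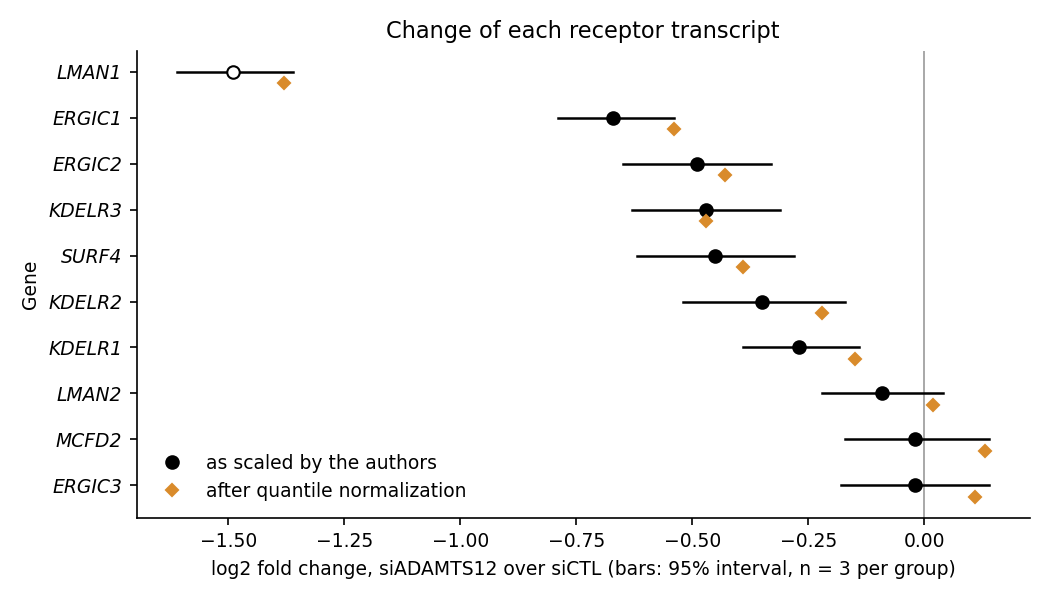
Log2 fold changes of the 10 genes (circles) with 95% intervals from limma (n = 3 per group), and the values after quantile normalization (diamonds); the open circle marks LMAN1, which was chosen for its value. The intervals of MCFD2, LMAN2 and ERGIC3 include 0, and their diamonds lie above 0.

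Differences between relatives were compared through log2 ratios within each library, over 6 pairs. The ratio of ERGIC1 to ERGIC3 went from 0.19 ± 0.08 to -0.46 ± 0.14 (SD, n = 3; exact 2-sided permutation p = 0.1, Benjamini-Hochberg adjusted 0.2), and its groups did not overlap. ERGIC2 against ERGIC3 went from -1.13 ± 0.15 to -1.60 ± 0.22, also without overlap (exact permutation p = 0.1, adjusted 0.2). The ratio of ERGIC1 to ERGIC2 went from 1.32 ± 0.08 to 1.15 ± 0.09 with overlapping groups (exact permutation p = 0.2, adjusted 0.3). Among the KDEL receptors, KDELR1 against KDELR3 went from 2.51 ± 0.06 to 2.72 ± 0.11 without overlap (exact permutation p = 0.1, adjusted 0.2). The change of that ratio was 0.20, and 0.31 after quantile normalization. KDELR1 against KDELR2 and KDELR2 against KDELR3 had overlapping groups, with exact permutation p of 0.5 and 0.3 (adjusted 0.5 and 0.36). Within same-numbered libraries, a comparison added after seeing the data, all 6 ratios changed in 1 direction in 3 of 3 pairs. The ERGIC1 to ERGIC2 ratio differed by -0.15, -0.25 and -0.13, KDELR1 to KDELR2 by 0.15, 0.07 and 0.02, and KDELR2 to KDELR3 by 0.08, 0.26 and 0.03. An exact sign-flip test of 3 pairs cannot go below the p = 0.25 (adjusted 0.25) that each ratio had, so no ratio could pass 0.05 in either form.

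Levels can be set against each other only per length. Per kilobase of annotated exon, the summed KDEL receptor level went from 4859 ± 43.3 to 3905 ± 79.8 normalized counts (SD, n = 3), with 80.4% left. KDELR1 made up 56.0% ± 2.57 of that sum in siCTL and 57.9% ± 1.83 in siADAMTS12, KDELR2 32.6% ± 2.75 and 31.8% ± 1.86, and KDELR3 11.4% ± 0.305 and 10.3% ± 0.658. The KDELR3 share was the only share of these whose groups did not overlap, its lowest siCTL value, 11.2%, lying above every siADAMTS12 value. Over the 10 genes in control cells, KDELR1 had the highest level per kilobase (2718 ± 104), followed by LMAN2 (2230 ± 100), MCFD2 (1807 ± 147), KDELR2 (1585 ± 147) and LMAN1 (1583 ± 49.7). The ranges of MCFD2 and KDELR2 overlapped, as did those of KDELR2 and LMAN1. ERGIC3 (1081 ± 66.5), SURF4 (843 ± 73.6) and KDELR3 (555 ± 14.9) came next, and ERGIC1 (522 ± 2.87) and ERGIC2 (508 ± 29.3) overlapped at the end. With siADAMTS12, LMAN1 stood at 564 ± 17.1 per kilobase and had moved from the fifth to the seventh place in the order. The order rests on the length used. Per kilobase of a single chosen transcript, ERGIC3 led with 4789 and ERGIC1 stood at 2564, with 1357 and 2881 bases in that transcript against 6012 and 14139 bases of annotated exon.

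In the search for siRNA seed matches, the other members, SURF4, ERGIC2 and the 3 KDEL receptors among those that fell and LMAN2 and ERGIC3 among those that did not pass, held no match to guide positions 2 to 7. No member's 3' UTR held the match to the sense strand's own positions 2 to 8 (ACTTTGG), which 21.6% of genes searched had. The longest unbroken stretch of the 19-base target sequence in any coding transcript was 8 bases in LMAN1 and 10 in ERGIC2, the longest among members, against all 19 in ADAMTS12. Of the 12612 genes searched, 15.6% held at least the 7-base match and 41.3% at least the 6-base match. The median log2 fold change was 0.02 in 7399 genes without a match, -0.04 with a 6-base match, -0.09 with a 7-base match and -0.24 with the 8-base match that adds an A. In the class of LMAN1, the 1195 genes whose longest match was the 7-base one, 16 had a lower log2 fold change than LMAN1, and 28.4% fell. In the class without a match 12.0% fell. Of the genes with the match to the sense strand's positions 2 to 8, whatever their guide match, 22.4% fell, with a median of -0.03. The classes were not matched for 3' UTR length or abundance. Whether the match plays a part in the level of LMAN1 was not tested.

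**Figure D3:**
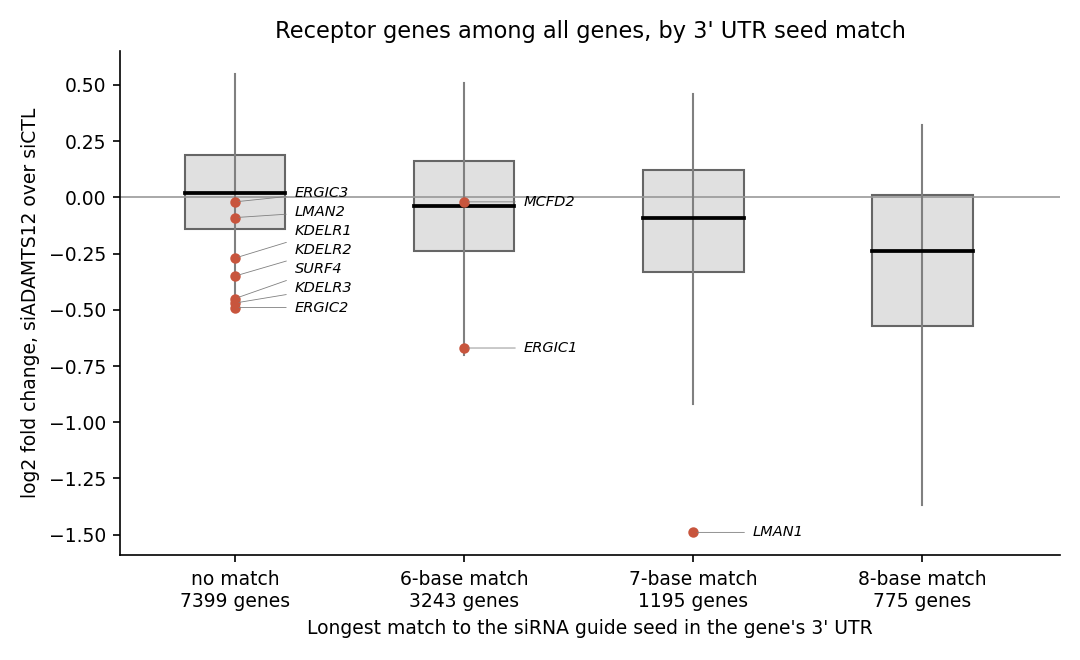
Log2 fold changes by the longest match to the siRNA guide seed in a gene's 3' UTR; boxes run from the 25th to the 75th percentile with the median as a bar, lines run from the 5th to the 95th percentile, and red points are the receptor genes. LMAN1, at -1.49, lies below the line of its class, which ends at -0.92, and 7 receptor genes are in the class without a match.

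The genes whose profile over the 6 libraries lay closest to that of LMAN1 were SERINC3, EEF2, PLAT, MGLL and ACSL4. Likeness was the root mean square difference of log2 values, each gene centred on its own mean, and ran from 0.048 to 0.055 for these 5 among 12266 candidates. SERINC3, a multispanning membrane protein, went from 7305 ± 379 to 2762 ± 121 normalized counts. EEF2, the translation elongation factor, went from 54366 ± 1748 to 20226 ± 448. PLAT, the tissue plasminogen activator, went from 9497 ± 488 to 3208 ± 190. Both PLAT and EEF2 carried at least the 7-base match in the 3' UTR. MGLL, which hydrolyses monoacylglycerols, went from 5710 ± 241 to 2144 ± 95.2 and carried the 7-base match, whereas ACSL4, a ligase that activates long fatty acids, went from 9726 ± 292 to 3497 ± 192 and, like SERINC3, held only 6-base matches. These genes were selected for their likeness to LMAN1, so their values are a description.

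**Figure D4:**
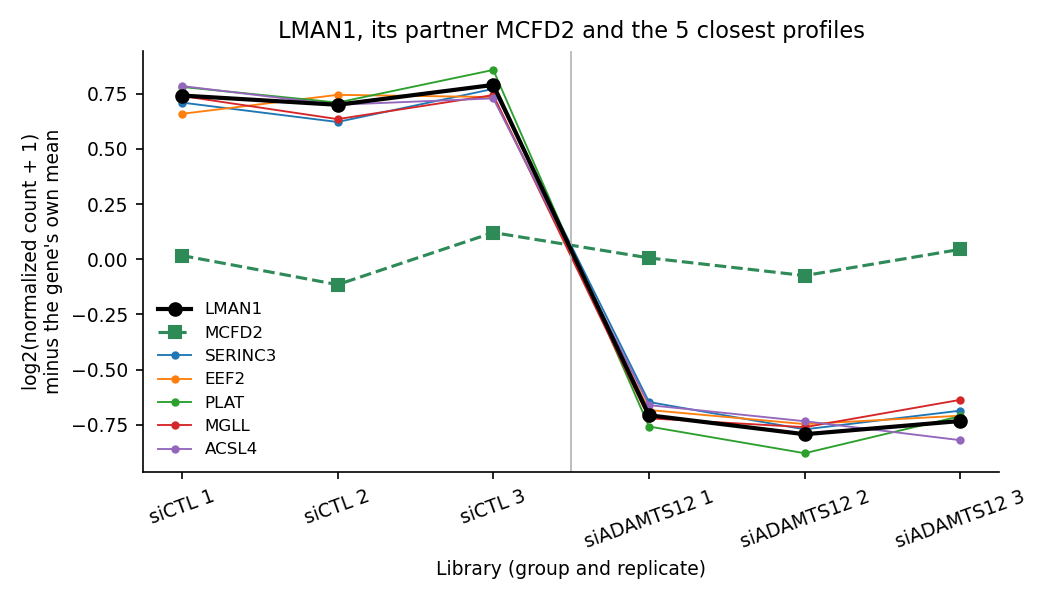
Log2(normalized count + 1) in each library minus the gene's own mean, for LMAN1 (thick black line), MCFD2 (dashed line) and the 5 genes with the closest profiles. LMAN1 and the 5 genes lie above their mean in the siCTL libraries and below it in the siADAMTS12 libraries, while MCFD2 stays near 0.

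Genes that work with these receptors were counted in 8 lists. Of the 120 tested, 45 (37.5%) fell and 5 rose, against 15.5% and 11.5% of all genes tested. Among all genes with a mean of at least 923, 23.4% fell and 12.5% rose, and with at least 5000, 33.7% and 5.86%. The list genes were not matched for abundance, and the lists were chosen with earlier results of these data known. Genes listed as ligands of the KDEL receptors were ER residents taken, without a check of protein sequences, to end in a retrieval signal. Of 40 tested, 21 fell and 2 rose, with a median log2 fold change of -0.25. RCN1, a calcium-binding protein of the ER lumen, went from 3691 ± 318 to 1712 ± 100 (limma log2 fold change -1.11). COLGALT2, which adds galactose to collagen, went from 402 ± 17.4 to 158 ± 11.1, and POFUT1, the fucosyltransferase of Notch, from 8318 ± 142 to 4877 ± 155. PDIA3, a disulfide isomerase for glycoproteins, was at -0.80. POGLUT1 and POGLUT2, which add glucose to EGF repeats, were the genes that rose (log2 fold changes 0.39 and 0.42). Both were named after their values were seen, and only 1 ligand rose when siCTL replicate 2 or 3, or replicate 1 of siADAMTS12, was left out. The guide's 7-base match was in 8 of the 21 ligand genes that fell, COLGALT2 and POFUT1 among them, and in 10 of the 40 searched.

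Among cargo, 2 of 6 tested clients of LMAN1, with or without MCFD2, fell (33.3%, against 15.5% of all genes tested). The lysosomal protease CTSC (cathepsin C) had 6732, 7409 and 6933 counts in siCTL and 4141, 4398 and 4180 in siADAMTS12 (limma log2 fold change -0.73 ± 0.06 SE, adjusted p = 6.5e-06). The gelatinase MMP9 went from 215 ± 1 to 58.7 ± 13.9, with a log2 fold change of -1.88. The median of the client list was -0.09, and factor VIII (F8) was at -0.11 (limma adjusted p = 0.592). Of 6 tested clients of SURF4, 1 fell (16.7%), the Golgi calcium-binding protein NUCB1, at -0.18 (limma adjusted p = 0.0384). Over 13 alternatives the number of SURF4 clients that fell ran from 0 to 2 and stayed the same in 4. It was 2 with the replicate block and 2 without siADAMTS12 replicate 2. After quantile normalization 0 fell and 1 rose. NUCB1 no longer passed under 8 of its 13 alternatives, with log2 fold changes from -0.20 to -0.01 and adjusted p from 0.0176 to 0.883. Leaving out any library other than siADAMTS12 replicate 2 ended its call (adjusted p from 0.0684 to 0.152).

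Other cargo receptors were counted by family. The p24 family holds transmembrane receptors that sort lipid-anchored and other cargo in both coats. Of 9 genes tested that bear its TMED name, 6 fell in limma (66.7%, against 15.5% of all genes tested). Among all genes with a mean of at least 923 the share was 23.4%. The TMED genes were taken by name, and whether each encodes a p24 receptor was not checked. None of the 9 rose, in the main fit or in any of the 13 alternatives. At an unadjusted p under 0.05 the count was 8, and all 9 had log2 fold changes below 0, with a median of -0.36. TMED10 had 7634, 7150 and 7651 counts in siCTL and 5095, 5118 and 5278 in siADAMTS12 (limma log2 fold change -0.53 ± 0.06 SE, adjusted p = 4.31e-05), with groups well apart. Its partners TMED9 and TMED2 were at -0.47 and -0.33, and TMED8 was at -0.67. TMED8 and TMED10 carried the guide's 7-base match. None of 9 further lectins and export or retrieval receptors (LMAN2L, 4 cornichon genes CNIH1 to CNIH4, BCAP31, RER1, MIA2 and MIA3) passed in limma. At an unadjusted p under 0.05 the count was 1, MIA2 at -0.22 with a 95% interval from -0.44 to -0.01 (adjusted p = 0.119). The list's median was -0.05.

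Some genes of the vesicle coats were called. Of 15 COPII genes, 5 fell (33.3%, against 15.5% of all genes tested) and 1 rose. Among all genes with a mean of at least 923, 23.4% fell, and with at least 5000, 33.7%. The coat genes were not matched for abundance. With the replicate block 8 fell and 2 rose. SEC24D, a cargo-binding coat subunit, went from 3628 ± 235 to 1743 ± 124 (limma log2 fold change -1.06 ± 0.07 SE, adjusted p = 1.61e-06). SEC24D held only a 6-base match. Its relative SEC24A and KLHL12, an adaptor that enlarges COPII carriers for procollagen, were both at -0.61 and carried the 7-base match, and SEC23A was at -0.33. The COPII gene that rose was SEC31B, at 0.51, named after its value was seen. Of 16 COPI and ARF genes, 7 fell (43.8%) and 1 rose, and 0 of the 16 held the 7-base match. COPB2, ARFGAP2 and COPZ1 were at -0.53, -0.44 and -0.36, while COPG2 had 1313, 1196 and 1186 counts in siCTL and 1880, 1811 and 1609 in siADAMTS12 and rose by 0.52 ± 0.08 (SE). The number of COPI genes that fell was 3 after quantile normalization, 4 without the intensity trend and 4 without siCTL replicate 1, against 7. After quantile normalization 3 also rose, and 2 rose with the replicate block, with a minimum mean of 50 or without siADAMTS12 replicate 1, against 1. Of 19 tethers and SNARE fusion proteins between ER and Golgi, 3 fell (STX18, SEC22B and RAB1B, at -0.69, -0.53 and -0.34). That share, 15.8%, was near the 15.5% of all genes tested. Only GORASP1 rose, at 0.20 (limma adjusted p = 0.036). In this list 3 of 18 genes searched held the 7-base match, and 0 of these fell. Any part of the match in these values was not tested. With the replicate block 7 of this list fell, and without siADAMTS12 replicate 2 the number was 5. GORASP1 no longer passed under 7 of its 13 alternatives, whose adjusted p ran from 0.0114 to 0.140. Every library but siADAMTS12 replicate 2 ended that call when left out (adjusted p from 0.0590 to 0.140).

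**Figure D5:**
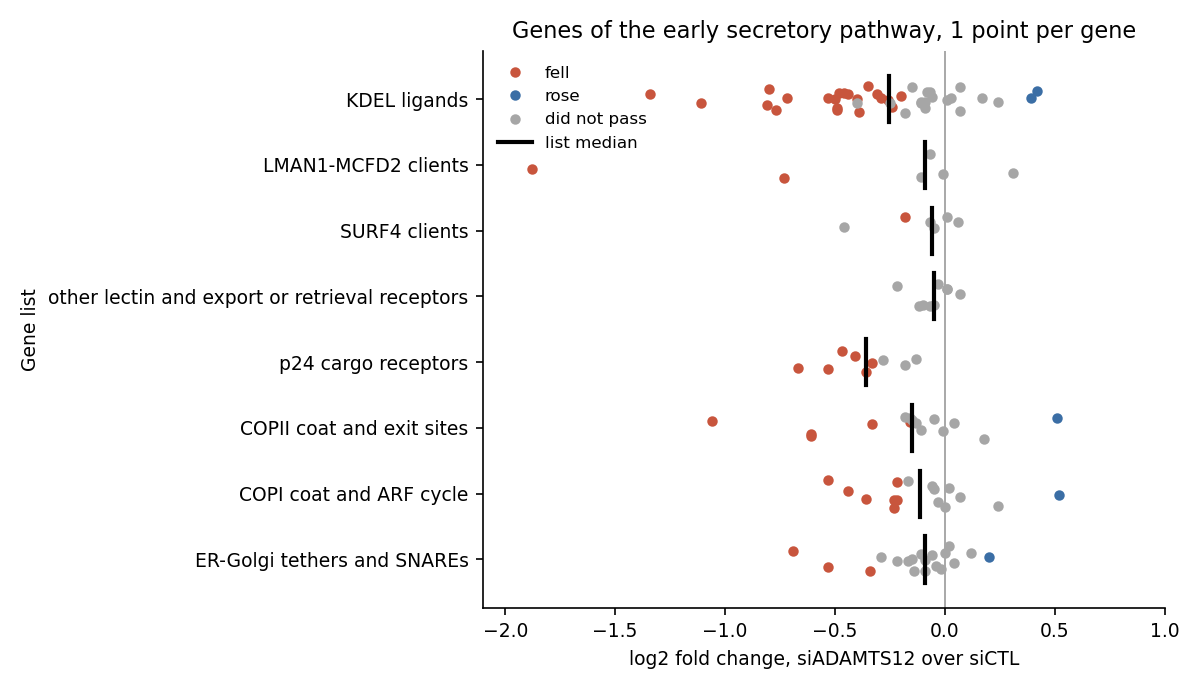
Log2 fold changes of the genes tested in 8 lists of the early secretory pathway, 1 point per gene, coloured by limma call, with the list median as a bar. The medians of the lists labelled KDEL ligands (-0.25) and p24 cargo receptors (-0.36) lie farthest to the left. The further lectins and receptors show only grey points, which did not pass.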

How the data were processed

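The authors' deposited table holds a score, normalized counts in whole numbers, with 1 column per library. Per the submitters' processing notes, STAR, HTSeq, DESeq2 and the build GRCh38 were used; versions, annotation and any use of strand in counting were not given in the sources used here. Per the labels' protocols, RNA with integrity numbers of 9.2 to 9.9 (500 ng per library) went into a stranded poly(A) kit. Since the scaled values hold whole numbers only, raw depth was not rebuilt and count models were not used.

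Genes with a mean of at least 10 were kept, and log2(value + 1) was fitted with limma 3.58.1 in R 4.3.3 with group as the only term and an intensity trend. Fold changes are siADAMTS12 over siCTL and understate the change of low genes. P-values are 2-sided, with Benjamini-Hochberg adjustment across 15637 genes and a threshold of 0.05. The fit was also run on simulated libraries, which were drawn independently and held no replicate structure. The outcome is not given here, and no result rests on it. Deviations from the group means were correlated between libraries of the same number (0.367, 0.135 and 0.133, against -0.193 to 0.0632 for different numbers). Every pair passed 0.1, so a replicate block was run beside the fit.

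Members and lists were chosen with earlier results of these data known. Named genes are the 10 members, ADAMTS12, the 5 genes closest to LMAN1 with a mean of at least 50, and from each list up to 4 genes with the smallest adjusted p among those that passed, or otherwise the gene with the smallest p; F8 was added after its value was seen. List membership comes from general knowledge. Lengths, positions and 3' UTRs (at least 30 bases, the principal transcript) are from GENCODE 29. Alternatives were other pseudocounts, filters, quantile normalization, no trend, the block and leaving out each library. Python 3.11.15, scipy 1.17.1 and matplotlib 3.10.9 were used.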

Additional observations from a re-analysis of the deposited data

How the results depend on the processing

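LMAN1 had log2 fold changes from -1.51 to -1.38 over 13 alternatives, the smallest fall being after quantile normalization. That scaling brought the median of genes with a mean of at least 5000 from -0.11 to 0.04, turned MCFD2 to 0.13, LMAN2 to 0.02 and ERGIC3 to 0.11 (none called), and left 4 of the 9 other receptor genes that fell in place of 6; without the intensity trend the number was 5. The cause was not tested. Leaving out each library gave -0.08 to 0.04 for MCFD2, -0.09 to 0.03 for ERGIC3 and -0.02 to 0.15 for the change of the KDELR1 to KDELR2 ratio. Genes that rose over all 8 lists numbered 9 after quantile normalization, 3 without the trend and 3 to 5 with a library left out (3 without siCTL replicate 2 and 3 without siCTL replicate 3), against 5. With the length of a single transcript, only 1 of 10 members kept its place in the order of levels. With the replicate block 6 of the 9 genes fell again, as did 3059 of all genes and 58 list genes, and apart from the list counts given above the pairing ended no call among the members. Depth per library could not be read from the scaled values, so counting error is not known.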
